A study of Mus musculus with 20 samples.

Results

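The genes described are the splicing factor and hnRNP genes, taken as every gene symbol that begins with Srsf and a digit, Hnrnp, Snrp, Sf3a or Sf3b and a digit, or U2af. These patterns matched 52 of the 23382 symbols, and 50 of the 52 were high enough to test (at least 1 TPM in at least 5 libraries). TPM is a level per length of transcript, scaled to sum to the same total in every library. By the patterns the genes fell into 11 SR protein genes, 18 hnRNP genes, 12 genes of small nuclear ribonucleoprotein (snRNP) proteins, 8 genes of SF3A and SF3B subunits and 3 U2AF genes. RNA had been sequenced from sorted mouse germinal centre B cells in 20 libraries, 5 in each of 4 groups: mutant centrocytes, control centrocytes, mutant centroblasts and control centroblasts. Centrocytes, the light zone cells, carried the sort label B220+FAS+GL7+CXCR4-CD86+, and centroblasts, which divide in the dark zone, the sort label B220+FAS+GL7+CXCR4+CD86-. Mutant cells had the genotype Cgamma1Cre:+/-; Myd88L252P:+/- and control cells Cgamma1Cre:+/-; Myd88L252P:WT. Both genotypes thus had 1 copy of the Cre recombinase, which is driven from the immunoglobulin C gamma 1 locus and acts in germinal centre B cells. The labels give neither age, sex, strain nor immunisation and do not say whether each library of a group is a mouse of its own. The p-values therefore cover the spread among these libraries alone, and it may be technical. Myd88 is the adaptor of Toll-like and interleukin-1 receptors, and L252P is the mouse form of a change common in human B cell lymphoma. A level per gene cannot show a single base change, so TPM gave no check of the genotype labels.

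Splicing removes introns in steps that these classes of protein divide among themselves. SR proteins bind exons and recruit the splicing machinery, while hnRNPs coat the nascent RNA and often block a splice site. The U1 and U2 snRNPs mark the start of an intron and its branch point, each around a ring of Sm proteins, and U2AF and the SF3A and SF3B complexes place U2 on the branch point. In B cells the choice of exons shapes surface proteins such as CD45 and the switch of immunoglobulin from its membrane form to its secreted form.

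Splicing factor genes passed the test between the zones and not between the genotypes. In centrocytes of both genotypes Srsf5, Srsf10 and Sf3b1 rose and 4 snRNP genes (Snrpe, Snrpb, Snrpa1 and Snrpc) fell, together with Sf3b5. Of these, Srsf10 lost both calls when the libraries were scaled by median of ratios. Zone calls were common, at 61.5% of all genes in mutants and 30.7% in controls. In both genotypes 20.3% of all genes were called higher in centrocytes and 7.93% lower, against 6% and 10% of the splicing factor genes. No splicing factor gene passed the test between Myd88 L252P and control cells in either zone. Of all genes 1.2% were called between genotypes in centrocytes and 4.29% in centroblasts. In centroblasts the count depended on single libraries, as given below. Calls were made with limma on log2(TPM + 1) across 11386 genes, at a Benjamini-Hochberg adjusted p under 0.05, and a fold change given below is on that scale. Since the RNA came from bulk cells, fewer cells of a type and less RNA per cell cannot be told apart.

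The promoters of 4 genes that changed with zone in both genotypes are shown, because genes that moved in opposite directions can be set side by side in them. Each runs from 250 bases before to 50 bases after the start listed for the gene (GRCm38.p6), 5′ to 3′ on the strand of the gene. The listed start lay 4 bases from the start of the RefSeq gene for Srsf5, 23 for Sf3b1, 0 for Snrpe and 59 for Snrpc. Srsf5 (chr12:80945249-80945548, plus strand) and Sf3b1 (chr1:55027429-55027728, minus strand) rose in centrocytes. Snrpe (chr1:133610231-133610530, minus strand) and Snrpc (chr17:27839837-27840136, plus strand) fell. Capitals mark matches, on either strand, to the motif of ETS factors (CCGGAAG) or of SP and KLF factors (GGGCGGGG).
Srsf5: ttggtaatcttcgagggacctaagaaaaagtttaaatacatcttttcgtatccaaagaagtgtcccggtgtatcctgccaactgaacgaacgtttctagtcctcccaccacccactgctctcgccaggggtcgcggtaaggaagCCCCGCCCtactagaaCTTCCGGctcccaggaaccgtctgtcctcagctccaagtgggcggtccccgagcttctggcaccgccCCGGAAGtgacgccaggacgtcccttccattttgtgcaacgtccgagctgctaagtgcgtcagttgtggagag
Sf3b1: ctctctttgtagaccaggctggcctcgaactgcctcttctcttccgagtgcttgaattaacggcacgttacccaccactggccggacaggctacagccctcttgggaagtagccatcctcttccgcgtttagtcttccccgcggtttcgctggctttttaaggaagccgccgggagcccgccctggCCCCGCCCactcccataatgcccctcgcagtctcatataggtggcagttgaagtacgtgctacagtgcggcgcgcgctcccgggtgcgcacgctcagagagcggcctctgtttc
Snrpe: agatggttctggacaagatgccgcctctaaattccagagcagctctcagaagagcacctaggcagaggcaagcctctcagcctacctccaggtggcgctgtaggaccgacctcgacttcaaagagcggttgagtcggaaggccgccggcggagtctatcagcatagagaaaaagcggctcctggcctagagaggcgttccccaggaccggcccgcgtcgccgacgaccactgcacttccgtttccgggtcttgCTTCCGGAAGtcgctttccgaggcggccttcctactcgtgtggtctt
Snrpc: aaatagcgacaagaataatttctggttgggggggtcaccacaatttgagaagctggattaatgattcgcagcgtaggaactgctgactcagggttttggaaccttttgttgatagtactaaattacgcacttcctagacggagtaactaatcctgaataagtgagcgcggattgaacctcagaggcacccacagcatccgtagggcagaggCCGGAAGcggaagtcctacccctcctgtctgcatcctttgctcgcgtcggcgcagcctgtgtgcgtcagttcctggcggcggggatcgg
Srsf5 held both motifs, Sf3b1 held the SP and KLF motif, and Snrpe and Snrpc held the ETS motif. In Snrpe the ETS match lay on both strands, at positions 4 and 7 from the start, where the letters read alike in both directions. Of the 46 splicing factor genes with a promoter in the RefSeq table, 15 (32.6%) held the ETS motif, against 11.9% of all 17492 promoters. By class it was in 4 of 11 SR genes, 2 of 17 hnRNP genes, 4 of 10 snRNP genes and 5 of 6 SF3A and SF3B genes. The SP and KLF motif was in 15 of 46 (32.6%), against 23.8% of all promoters, and by class in 8 of 11 SR genes, 5 of 17 hnRNP genes, 0 of 10 snRNP genes and 2 of 6 SF3A and SF3B genes. The CCAAT box (CCAAT) was in 23 of 46 (50%), against 39.2% of all promoters, and by class in 4 of 11, 12 of 17, 4 of 10 and 2 of 6. The E-box (CACGTG) was in 5 of 46 (10.9%), against 7.91%. Both strands were searched for each motif, and a match describes these letters only.

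Before the zones are compared, 2 of the mutant centroblast libraries have to be set apart. In mutant centroblast libraries 4 and 5 genes of short transcripts (at most 1216 bases, the lower quartile of the genes with a length) took 46.9% and 51.7% of all TPM, against 38.0% to 42.9% in the other 18. Ribosomal protein genes took 12.6% and 17.1% in these 2, against 7.43% to 10.1%, and 12895 and 12719 symbols were above 0, against 13053 to 14092. The summed level of the 18 hnRNP genes was 5102 and 4039 TPM in these 2, against 6216 to 6811 TPM in mutant centroblast libraries 1 to 3. Both libraries lay below libraries 1 to 3 in 7 of 10 SR genes and 15 of 18 hnRNP genes, and in snRNP genes both lay above in 6 of 11 and below in 1. The total counts of splicing factor genes called between zones in mutants are given with and without these 2. Counts in mutants by class, of groups that did not overlap and of other splicing genes include them. Splicing factor genes that lost their zone call in mutants without them are named, and for some others the size without them is given. The 11 germinal centre B cell markers found summed to 10800 to 12400 TPM in mutant centrocytes, 12600 to 13800 in control centrocytes, 11300 to 12500 in mutant centroblasts and 12300 to 13300 in control centroblasts, with none at 0 in a group. The sort showed in the zone markers: 8 light zone markers summed to 1930 to 2220 TPM in mutant centrocytes and 1850 to 2350 in control centrocytes, against 521 to 747 in mutant and 639 to 776 in control centroblasts. The 8 dark zone markers summed to 1000 to 1450 and 1500 to 1720 TPM in mutant and control centrocytes, against 1800 to 2760 and 2420 to 2970 TPM in mutant and control centroblasts. Among them Mki67 averaged higher in centrocytes, at 440 against 349 TPM in mutants and 439 against 423 TPM in controls. Foxo1 did so in mutants, at 99.9 against 80.7 TPM, and had 113 against 115 TPM in controls. Markers of macrophages and monocytes also moved with zone: 11 found of 12 listed summed to 160 to 346 TPM in mutant and 185 to 312 in control centrocytes, against 57.5 to 125 in mutant and 65.0 to 85.6 in control centroblasts, with none at 0, and their part in the zone results was not tested. The 8 T cell markers summed to 203 to 246 and 178 to 293 TPM in mutant and control centrocytes and to 164 to 247 and 100 to 230 TPM in mutant and control centroblasts. Almost all of that was Lck, while Cd3e, Cd3g, Cd3d, Cd4 and Cd8a averaged at most 1.37 TPM in every group. The 6 plasma cell markers found summed to 746 to 1280 and 822 to 1050 TPM in mutant and control centrocytes. In mutant and control centroblasts they summed to 1520 to 1860 and 1400 to 1790 TPM. Most of that was Igj, while Sdc1, Prdm1, Irf4 and Tnfrsf17 averaged higher in centrocytes of both genotypes. The part of these markers in the zone results was not tested.

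**Figure D1:**
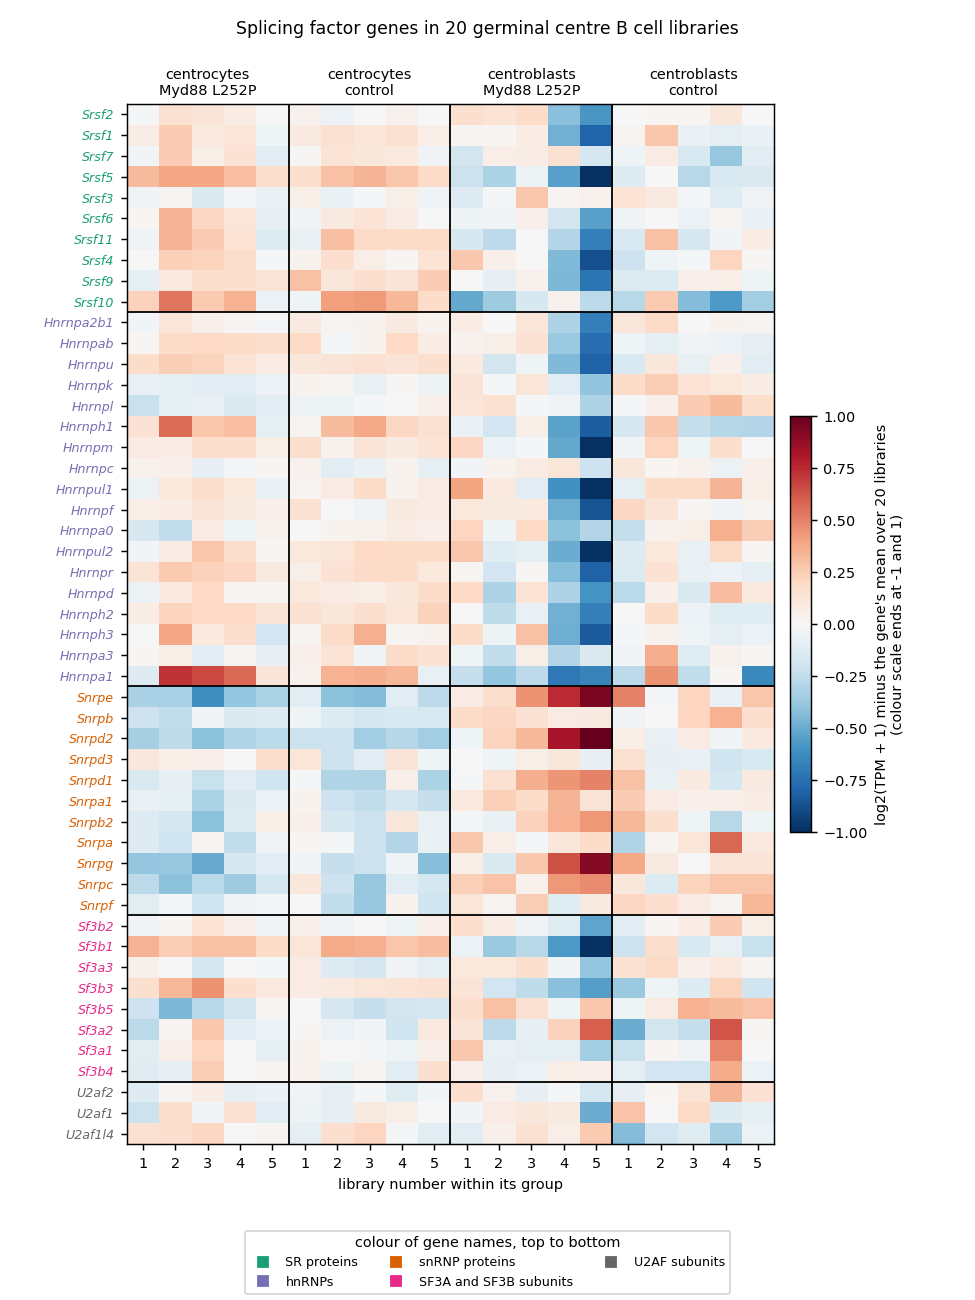
Each row is 1 of the 50 splicing factor genes tested and each column 1 of the 20 libraries, in blocks of 5 by group. Colour gives log2(TPM + 1) minus the mean of the gene over all libraries, and in 34 of the 50 genes mutant centroblast libraries 4 and 5 both lie on one side of libraries 1 to 3, below them in 27 and above them in 7.

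In mutant cells, 16 splicing factor genes were higher and 9 lower in centrocytes than in centroblasts, out of 50. Of all genes tested 61.5% were called in this comparison, 48.8% higher and 12.6% lower, and the median fold change was 0.34 over all genes and 0.10 over the splicing factor genes. In this unscaled fit the classes differed in direction. Of 10 SR genes 6 rose and none fell and of 18 hnRNP genes 8 rose and none fell, where 48.8% of all genes rose. Of 11 snRNP genes none rose and 8 fell, where 12.6% of all genes fell. With libraries scaled by median of ratios, which brought the median of all genes to 0.02, there were 3 higher and 27 lower, against 29.9% and 28.6% of all genes, and the median fold change was -0.02 for SR genes (0.33 unscaled), -0.04 for hnRNP genes (0.31 unscaled) and -0.70 for snRNP genes (-0.34 unscaled). By class, 1 SR gene was higher and 3 lower after that scaling, 1 hnRNP gene higher and 4 lower, and all 11 snRNP genes lower. Unscaled and without mutant centroblast libraries 4 and 5, there were 8 higher and 10 lower, against 35.8% and 14.9% of all genes. The groups of 5 did not overlap for 5 genes that were higher and 6 that were lower in centrocytes, against 28.7% and 7.91% of all genes.

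In control cells, where no library stood apart in this way, 4 splicing factor genes were higher and 6 lower in centrocytes. The higher ones were Srsf5, Srsf10, Sf3b1 and U2af1l4, and the lower ones Snrpe, Snrpb, Snrpa1, Snrpc, Snrpf and Sf3b5. Of all genes 30.7% were called here, 21.2% higher and 9.48% lower, with a median fold change of 0.14, against 0 for the splicing factor genes. Of the 11 snRNP genes 5 fell, with a class median of -0.27 that stood at -0.41 after scaling by median of ratios. Of the hnRNP genes 0 of 18 passed in limma (2 had an unadjusted p under 0.05), while 5 were higher and 2 lower (Hnrnpk and Hnrnpl) once mutant centroblast libraries 4 and 5, which share the estimate of spread, were left out of the fit. With these 2 left out 10 were higher and 12 lower in all, against 33.3% and 14.3% of all genes. Scaling by median of ratios left 2 higher and gave 11 lower, against 18.2% and 17.4% of all genes. The groups did not overlap for 3 genes that were higher and 6 that were lower, against 17% and 9.51% of all genes. The 2 zone comparisons have no libraries in common, and 3 of the higher genes (Srsf5, Srsf10 and Sf3b1, of 4 in controls and 16 in mutants) and 5 of the lower ones (Snrpe, Snrpb, Snrpa1, Snrpc and Sf3b5, of 6 in controls and 9 in mutants) were called in both. Of all genes called in controls, 95.5% of the higher and 83.7% of the lower ones were called in mutants too, against 75% and 83.3% of the splicing factor genes. Of these, Srsf5, Sf3b1 and all 5 lower genes were called in both genotypes in all 4 combinations of scaling and of leaving out these 2 libraries.

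**Figure D2:**
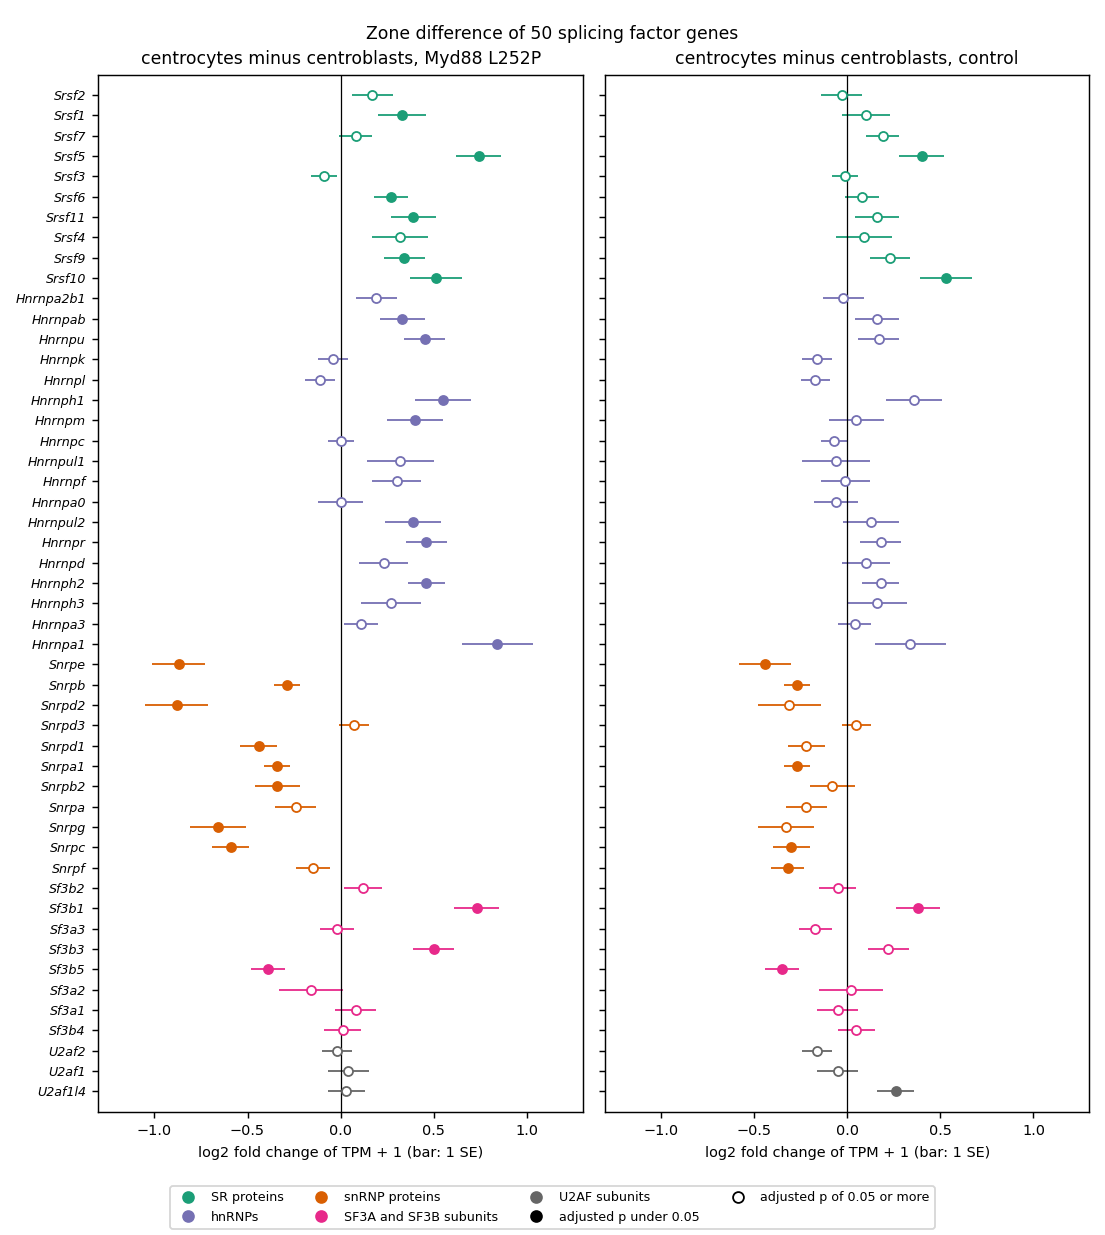
Log2 fold change of TPM + 1, centrocytes minus centroblasts, of each splicing factor gene with a bar of 1 SE, in mutant cells on the left and in control cells on the right. Filled points passed an adjusted p of 0.05. The snRNP genes lie at or below 0 but for Snrpd3 in both panels, and most SR and hnRNP genes lie above 0 in mutant cells, where after scaling by median of ratios their class medians stood at -0.02 and -0.04.

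Among SR genes, Srsf5 rose in both genotypes. Srsf5 (chr12:80945504-80950507, plus strand, GENCODE M21) encodes an SR protein that binds exonic enhancers. In mutant cells it had 367, 385, 385, 363 and 333 TPM in centrocyte libraries 1 to 5, against 254, 237, 284, 202 and 146 TPM in centroblast libraries. In control cells it had 332, 362, 374, 357 and 337 TPM in centrocytes, against 269, 294, 243, 265 and 266 TPM in centroblasts. All 5 centrocyte libraries lay above all 5 centroblast libraries in both genotypes. The fold change was 0.74 ± 0.12 (SE, adjusted p = 3.14e-05) in mutants and 0.40 ± 0.12 (adjusted p = 0.0149) in controls. In mutants it was 0.51 without centroblast libraries 4 and 5 and 0.39 after scaling by median of ratios.

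Srsf10, which represses splicing once it loses its phosphates, was the tested SR gene with the lowest level. It had 98.8, 122, 101, 107 and 80.7 TPM in mutant centrocytes, against 58.6, 65.5, 75.1, 86.6 and 70.1 TPM in mutant centroblasts. In control cells the levels were 81.7, 112, 113, 106 and 95.8 TPM in centrocytes, against 69.1, 101, 62.1, 56.2 and 65.9 TPM in centroblasts. The ranges overlapped in both, by 1 mutant library on each side and through control centroblast library 2. It rose by 0.51 ± 0.14 in mutants (adjusted p = 0.0039) and by 0.53 ± 0.14 in controls (adjusted p = 0.00695). After scaling by median of ratios both calls were lost, at 0.16 (adjusted p = 0.377) and 0.39 (adjusted p = 0.0524).

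The 3 best studied SR genes passed in mutants only or not at all. Srsf1, which binds exonic enhancers and helps to define exons, averaged 345 ± 25.6 TPM in mutant centrocytes and 281 ± 69.4 TPM in mutant centroblasts (SD, n = 5 each). It rose by 0.33 ± 0.13 (adjusted p = 0.0284), but 184 and 230 TPM in centroblast libraries 5 and 4 lay under the 326 to 338 TPM of the other 3, and without these 2 the fold change was 0.06 (adjusted p = 0.519). The call was also lost without centrocyte library 2 (adjusted p = 0.0704). After scaling by median of ratios the direction turned, to -0.02, and to -0.11 with libraries 4 and 5 left out as well. In control cells Srsf1 had 0.10 ± 0.13 (adjusted p = 0.557). Srsf2, a core protein of nuclear speckles that is mutated in myeloid neoplasms, had the highest level of the class, with zone differences of 0.17 ± 0.11 in mutants (adjusted p = 0.193) and -0.03 ± 0.11 in controls (adjusted p = 0.886). Srsf3, the smallest SR protein, which also acts in mRNA export, had -0.09 ± 0.07 (adjusted p = 0.296) and -0.01 ± 0.07 (adjusted p = 0.92). Srsf6, Srsf9 and Srsf11 were the other genes that rose in mutants, by 0.27 to 0.39. All 3 calls were lost without centroblast libraries 4 and 5, at 0.11 to 0.25, and after scaling by median of ratios, at -0.08 for Srsf6, -0.01 for Srsf9 and 0.04 for Srsf11. Srsf12 was at 0 in 17 of 20 libraries and at no more than 0.132 TPM in the others, and was not tested.

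**Figure D3:**
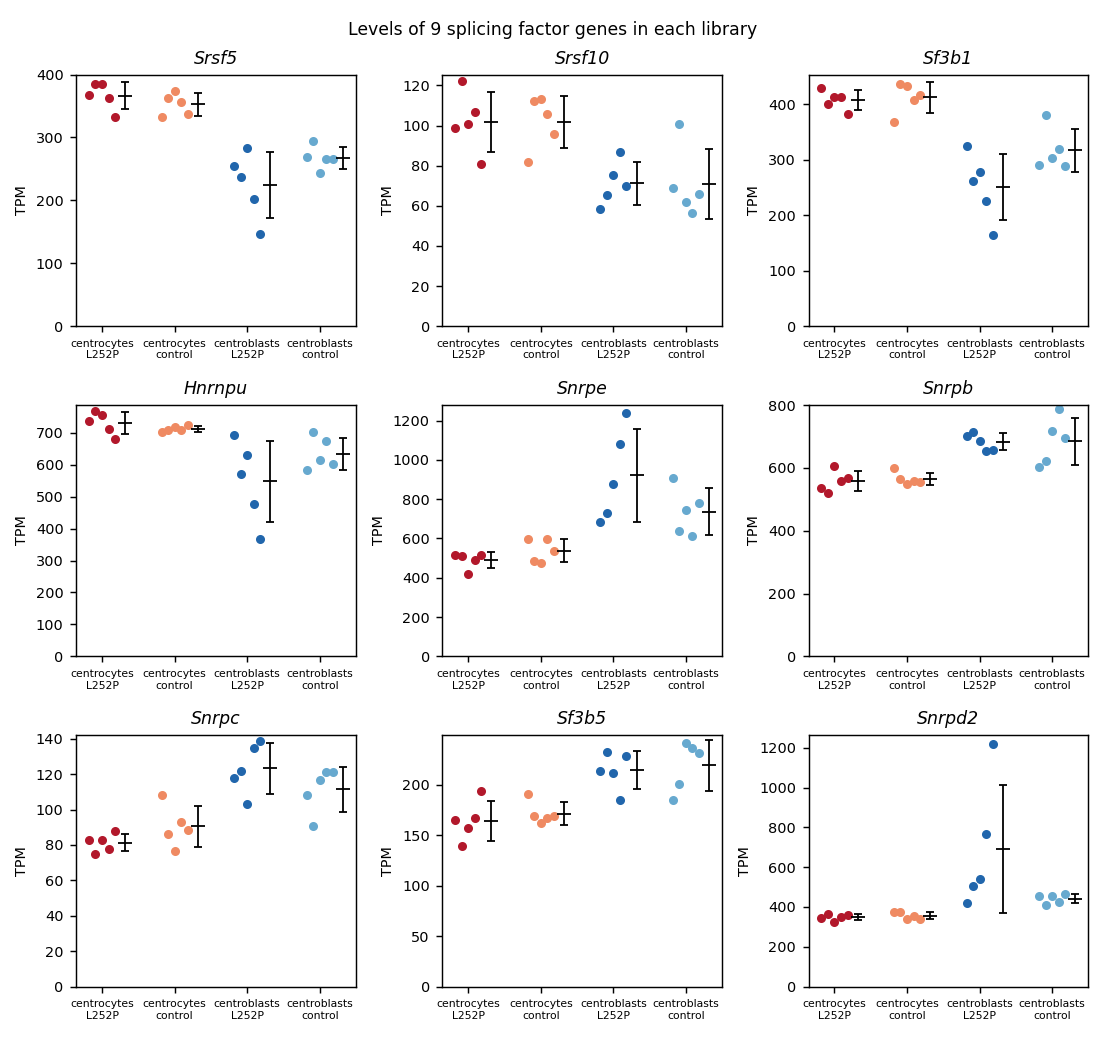
TPM of 9 splicing factor genes in each of the 20 libraries, with points in the order of library number and bars for mean ± SD of 5. Srsf5, Srsf10 and Sf3b1 are higher in centrocytes of both genotypes, Snrpe, Snrpb, Snrpc and Sf3b5 lower, and mutant centroblast libraries 4 and 5 have the most extreme values for Srsf5, Sf3b1, Hnrnpu, Snrpe and Snrpd2.

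The hnRNP genes spanned the widest range of levels. Hnrnpa2b1, which also sorts RNA for transport, averaged 1110 TPM over the 20 libraries. Hnrnpa1, in most tissues among the most abundant hnRNPs, averaged 5 TPM. A search of the GENCODE M21 pseudogene transcripts found 12 that matched at least 50% of the coding sequence of Hnrnpa1 at 90% identity or more, and 34 for Hnrnpa3, at 47.3 TPM the next lowest. How reads that match several copies were counted is not given in the sources used here, so the levels of these genes are uncertain. In mutant cells Hnrnpa1 had 4.27, 8.51, 8.07, 7.53 and 5.28 TPM in centrocytes, against 3.89, 3.39, 3.79, 2.50 and 2.62 TPM in centroblasts, with no overlap. That rise of 0.84 ± 0.19 (adjusted p = 0.000931) was the largest of the class and stood at 0.69 (adjusted p = 0.0122) without centroblast libraries 4 and 5, while in controls the difference was 0.34 ± 0.19 (adjusted p = 0.188).

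Hnrnph1, which binds runs of G, had 526, 702, 576, 585 and 446 TPM in mutant centrocytes, against 453, 415, 496, 327 and 268 TPM in mutant centroblasts. The ranges overlapped, and the rise of 0.55 ± 0.15 (adjusted p = 0.00305) missed the threshold without centroblast libraries 4 and 5, at 0.31 (adjusted p = 0.0553), and after scaling by median of ratios, at 0.20 (adjusted p = 0.0964). In controls it had 0.36 ± 0.15 (adjusted p = 0.0665). Hnrnpu, a scaffold of nuclear RNA and chromatin, had 738, 768, 755, 713 and 682 TPM in mutant centrocytes, against 692, 571, 629, 478 and 369 TPM in mutant centroblasts. Its rise of 0.45 ± 0.11 (adjusted p = 0.00208) stood at 0.10 (adjusted p = 0.237) after scaling by median of ratios and at 0.22 (adjusted p = 0.013) without centroblast libraries 4 and 5, and in controls the difference was 0.17 ± 0.11 (adjusted p = 0.268). The other 5 hnRNP genes that rose in mutants, Hnrnph2, Hnrnpr, Hnrnpm, Hnrnpul2 and Hnrnpab, did so by 0.33 to 0.46. All 5 calls were lost after scaling by median of ratios, at -0.03 to 0.11, where Hnrnpab turned to -0.03. Without centroblast libraries 4 and 5 Hnrnpm, Hnrnpul2 and Hnrnpab also lost theirs, at 0.07 to 0.08, while Hnrnph2 and Hnrnpr kept them at 0.27 and 0.24.

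Regulators of CD45 exons were of separate interest in these cells. Hnrnpl, which represses variable exons of CD45, had 436, 478, 481, 460 and 469 TPM in mutant centrocytes, against 491, 491, 500, 509 and 527 TPM in control centrocytes. All 5 mutant libraries lay below all 5 control libraries, and Hnrnpl was the 1 of 50 genes whose genotype groups did not overlap in centrocytes, against 1.99% of all genes lower in this way and 2.63% higher. The difference of -0.12 ± 0.08 missed the threshold (adjusted p = 0.829). Between zones Hnrnpl had -0.11 ± 0.08 in mutants (adjusted p = 0.241) and -0.17 ± 0.08 in controls (adjusted p = 0.116). Hnrnpk, which binds runs of C, had 633, 628, 587, 623 and 595 TPM in control centrocytes, against 700, 732, 677, 663 and 649 TPM in control centroblasts, again with no overlap and short of the threshold at -0.16 ± 0.08 (adjusted p = 0.136). Hnrnpll, the partner of Hnrnpl in CD45 splicing that rises on the way to plasma cells, is listed under its older symbol Hnrpll and so fell outside the patterns. It averaged 0.547 ± 0.290 TPM in mutant centrocytes, 0.539 ± 0.247 TPM in control centrocytes, 0.159 ± 0.146 TPM in mutant centroblasts and 0.219 ± 0.145 TPM in control centroblasts (SD, n = 5 each), too low to be tested. Hnrpdl, the older symbol of Hnrnpdl, rose in centrocytes by 0.43 ± 0.08 in mutants (adjusted p = 0.00021) and by 0.33 ± 0.08 in controls (adjusted p = 0.0056). Sfrs18, a gene of an SR-related protein, rose by 1.14 ± 0.19 (adjusted p = 5.13e-05) and 0.88 ± 0.19 (adjusted p = 0.00167). Hnrpdl and Sfrs18 were singled out after their values were seen. The median of all genes was 0.34 in mutants and 0.14 in controls, and no scaled values are given for these 2.

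The snRNP genes were the class that fell. Snrpe (chr1:133603871-133610291, minus strand), a protein of the Sm ring, had the highest level of the class over all libraries. It had 514, 513, 421, 492 and 518 TPM in mutant centrocytes, against 683, 728, 879, 1080 and 1240 TPM in mutant centroblasts. In control cells it had 597, 485, 477, 597 and 537 TPM in centrocytes, against 907, 639, 747, 611 and 781 TPM in centroblasts. No centrocyte library reached the lowest centroblast library in either genotype. The fold change was -0.87 ± 0.14 in mutants (adjusted p = 2.49e-05), -0.63 without centroblast libraries 4 and 5, and -0.44 ± 0.14 in controls (adjusted p = 0.0184). The call in controls missed the threshold without control centroblast library 1 (adjusted p = 0.0629) or control centrocyte library 2 or 3 (adjusted p = 0.0505 and 0.0541).

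Snrpb, the SmB protein of the same ring, had 535, 521, 606, 560 and 567 TPM in mutant centrocytes, against 702, 716, 685, 655 and 658 TPM in mutant centroblasts. Control centrocytes had 599, 564, 549, 557 and 556 TPM, against 603, 622, 718, 788 and 695 TPM in control centroblasts. Here libraries 4 and 5 of the mutant centroblasts were the lowest of their group rather than the highest, and the groups were apart in both genotypes. Snrpb fell by 0.29 ± 0.07 in mutants (adjusted p = 0.00148) and by 0.27 ± 0.07 in controls (adjusted p = 0.0064).

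Snrpd2, the SmD2 protein, differed most in mutants. It had 343, 363, 326, 351 and 358 TPM in mutant centrocytes, against 420, 505, 542, 766 and 1220 TPM in mutant centroblasts. Control centrocytes had 373, 375, 340, 355 and 340 TPM, against 453, 410, 457, 425 and 464 TPM in control centroblasts. The groups were apart in both genotypes, by a margin that in mutants was widest for centroblast library 5. The fold change was -0.88 ± 0.17 in mutants (adjusted p = 0.000253; -0.48 without centroblast libraries 4 and 5) and -0.31 ± 0.17 in controls (adjusted p = 0.182), and in controls it passed once mutant centroblast libraries 4 and 5 were left out of the fit.

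Snrpg and Snrpf complete the ring beside Snrpd1 and Snrpd3. Snrpd1 fell in mutants by 0.44 ± 0.10 (adjusted p = 0.00121), where centroblast libraries 4 and 5 were the highest, at 537 and 558 TPM. That call was kept without these 2 libraries, and in controls Snrpd1 had -0.22 ± 0.10 (adjusted p = 0.109). Snrpg fell in mutants, to 94.0, 94.7, 86.5, 110 and 114 TPM in centrocytes, against 128, 111, 149, 192 and 234 TPM in centroblasts, by 0.66 ± 0.15 (adjusted p = 0.000769), and the fold change was -0.37 without centroblast libraries 4 and 5. The groups overlapped by 1 library on each side. In controls it had -0.33 ± 0.15 (adjusted p = 0.0934). Snrpf, the tested gene of the class with the lowest level, fell in controls instead, with 92.2, 77.8, 70.9, 94.9 and 80.8 TPM in centrocytes, against 107, 104, 98.1, 94.4 and 117 TPM in centroblasts, where a single library on each side crossed over. That fall was 0.32 ± 0.09 (adjusted p = 0.0102), and in mutants the difference was -0.15 ± 0.09 (adjusted p = 0.158). Snrpd3 was the snRNP gene that did not lie below 0 in either genotype, at 0.07 ± 0.08 (adjusted p = 0.447) in mutants and 0.05 ± 0.08 (adjusted p = 0.664) in controls, and it was singled out for that after its values were seen. The Sm proteins enter the ring in equal number, but their mRNA levels did not match. Snrpb was highest in both centrocyte groups, Snrpe in both centroblast groups and Snrpf lowest in all 4, with a ratio of highest to lowest of 6.34 in mutant centrocytes, 6.78 in control centrocytes, 9.42 in mutant centroblasts and 7.08 in control centroblasts.

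Of the 4 genes of proteins particular to U1 or U2 in this class (Snrpa, Snrpc, Snrpa1 and Snrpb2), 3 fell in mutants and 2 in controls. Snrpa had -0.24 in mutants (adjusted p = 0.073) and did not pass in either genotype, and Snrpb2 fell by 0.34 in mutants (adjusted p = 0.0146), a call lost without centroblast libraries 4 and 5. Snrnp70, the U1 protein whose symbol lies outside the patterns, had 0.15 ± 0.09 (adjusted p = 0.157) and 0.06 ± 0.09 (adjusted p = 0.626). Snrpc, the U1-C protein that steadies U1 at the intron start, had 83.0, 75.1, 82.9, 77.9 and 88.1 TPM in mutant centrocytes, against 118, 122, 103, 135 and 139 TPM in mutant centroblasts. In control cells it had 108, 86.4, 76.7, 93 and 88.3 TPM in centrocytes, against 108, 91.0, 117, 121 and 121 TPM in centroblasts. The groups were apart in mutants and overlapped in controls. It fell by 0.59 ± 0.10 (adjusted p = 6.03e-05) and by 0.30 ± 0.10 (adjusted p = 0.0276), the second of which missed the threshold without control centrocyte library 2, 3 or 5 or control centroblast library 3, 4 or 5 (adjusted p = 0.0536 to 0.0938). Reads of Snrpc, too, may be split with copies, since 7 pseudogene transcripts matched it. Snrpa1, a protein of U2, fell by 0.34 ± 0.07 in mutants (adjusted p = 0.000636) and by 0.27 ± 0.07 in controls (adjusted p = 0.00878), with no overlap in either. Snrpn, an imprinted gene that neurons use in place of Snrpb, and Snurf, which shares its transcript, are listed at 0 in all 20 libraries.

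The summed levels of the classes, from the same TPM, were also set against each other within each library, where scaling between libraries cancels. Such a ratio cannot tell a fall of snRNP genes from a rise of the other class. The 12 snRNP genes summed to 1.04 to 1.3 times the 11 SR genes in mutant centrocytes and 1.06 to 1.31 times in control centrocytes, against 1.5 to 3.05 times in mutant and 1.31 to 1.66 times in control centroblasts. Control centrocyte library 1 and control centroblast library 2 both stood at 1.31, and in mutants the groups did not overlap, also without libraries 4 and 5. Relative to the 18 hnRNP genes the ratio was 0.431 to 0.507 in mutant and 0.434 to 0.512 in control centrocytes, against 0.543 to 1.33 in mutant and 0.503 to 0.642 in control centroblasts. The hnRNP sum was 2.34 to 2.57 times the SR sum in mutant and 2.42 to 2.56 times in control centrocytes, against 2.30 to 2.77 times in mutant and 2.58 to 2.75 times in control centroblasts. All 52 genes together summed to 14240 to 15240 TPM in mutant centrocytes, 14480 to 15010 in control centrocytes, 12910 to 15540 in mutant centroblasts and 14720 to 15330 in control centroblasts, so the totals overlapped while the shares of the classes differed.

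**Figure D4:**
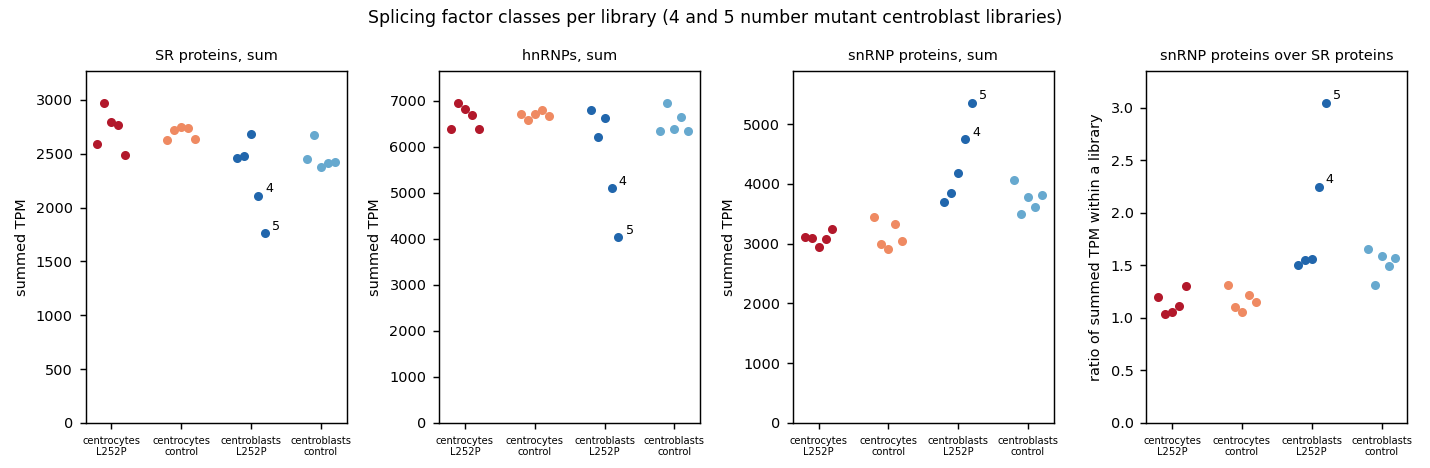
Summed TPM of the SR, hnRNP and snRNP genes in each library, and on the right the snRNP sum over the SR sum within a library, with mutant centroblast libraries 4 and 5 numbered. The ratio lies between 1.04 and 1.31 in centrocytes and between 1.31 and 3.05 in centroblasts.

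Within SF3B the subunits split. Sf3b1 (chr1:54985169-55027481, minus strand) encodes the large subunit that holds the branch point and is mutated in chronic lymphocytic leukaemia and myelodysplasia. It had 429, 401, 413, 413 and 382 TPM in mutant centrocytes, against 324, 261, 278, 226 and 165 TPM in mutant centroblasts. In control cells it had 367, 436, 432, 408 and 417 TPM in centrocytes, against 290, 381, 303, 320 and 289 TPM in centroblasts. The groups were apart in mutants and overlapped in controls through centrocyte library 1 and centroblast library 2. It rose by 0.73 ± 0.12 in mutants (adjusted p = 5.03e-05; 0.51 without centroblast libraries 4 and 5, 0.38 after scaling by median of ratios) and by 0.38 ± 0.12 in controls (adjusted p = 0.0228), a call that missed the threshold without control centroblast library 1 or 5 or control centrocyte library 2 or 3 (adjusted p = 0.0543 to 0.0592).

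Sf3b5 (chr10:13005343-13009183, plus strand), the smallest subunit of the same complex, fell. It had 165, 139, 157, 167 and 194 TPM in mutant centrocytes, against 214, 233, 212, 185 and 229 TPM in mutant centroblasts. Control centrocytes had 191, 169, 162, 167 and 169 TPM, against 185, 201, 242, 237 and 232 TPM in control centroblasts. A single library crossed over in each genotype, centrocyte library 5 in mutants and library 1 in controls. The fall was 0.39 ± 0.09 in mutants (adjusted p = 0.00143) and 0.35 ± 0.09 in controls (adjusted p = 0.00757), and both calls were kept in all 30 alternatives. Sf3b3, the scaffold beside Sf3b1, rose in mutants by 0.50 ± 0.11 (adjusted p = 0.000788; 0.14, adjusted p = 0.156, after scaling by median of ratios) and had 0.22 ± 0.11 in controls (adjusted p = 0.137). The other 5 SF3A and SF3B genes did not pass, with fold changes of -0.17 to 0.12 over both genotypes, among them Sf3b2, the highest of the class, and Sf3b4, the lowest.

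Of the U2AF genes, U2af2, the large subunit that binds the pyrimidine tract, and U2af1, the small subunit that reads the end of the intron, did not pass between zones in either genotype (adjusted p = 0.805 and 0.79 in mutants, 0.119 and 0.782 in controls). U2af1l4, a relative of U2af1 that in mouse takes part in exon choice in CD45, rose in control centrocytes. It had 44.8, 53.6, 55.9, 47.4 and 44.6 TPM in control centrocytes, against 35.3, 41.8, 44.0, 37.8 and 45.9 TPM in control centroblasts. The groups overlapped, and the rise of 0.26 ± 0.10 (adjusted p = 0.0454) was called in 14 of 30 alternatives, with an adjusted p of 0.0169 to 0.469 over them. In mutants the difference was 0.03 ± 0.10 (adjusted p = 0.817).

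Transcript length moved with these differences. Over the 50 genes the zone fold change and the median transcript length had a Spearman correlation of 0.55 in mutants and 0.40 in controls, against 0.38 and 0.26 over the 9795 tested genes with a length, a description across genes that share their libraries. Transcripts of the snRNP genes had a class median of 1204 bases, against 1884 for SR genes and 2078 for hnRNP genes. The median zone difference of all short genes was 0.06 in mutants and 0.01 in controls, against 0.42 and 0.18 for the longer ones. Of the 6 short snRNP genes 5 fell in mutants and 4 in controls, and of the 5 longer ones 3 and 1. The median over a gene's coding transcripts is a rough measure of length. For Hnrnpk (952 bases) and Sf3a2 (781 bases) it was below the longest coding sequence (1392 and 1455 bases). Snrpd2, with 354 coding bases, counted as longer at 1420 bases, and Sf3b5, with 258 coding bases, at 3841 bases. The part of length in the results was not tested.

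**Figure D5:**
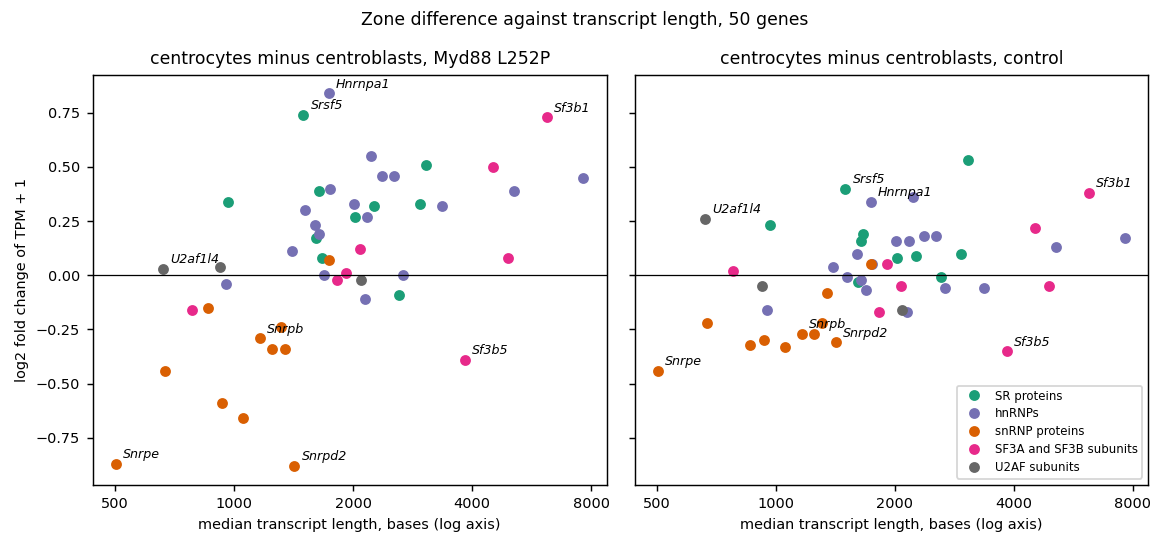
Zone difference of each splicing factor gene (log2 fold change of TPM + 1, centrocytes minus centroblasts) against the median length of its GENCODE M21 transcripts on a log axis, in mutant cells on the left and control cells on the right. Of the 11 snRNP genes 6 are at or under 1216 bases, and all but Snrpd3 lie below 0.

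Between Myd88 L252P and control centrocytes, 0 of 50 splicing factor genes passed the limma test and 0 had an unadjusted p under 0.05, where 1.20% of all genes were called (0.896% higher and 0.307% lower) and 9.61% had such a p. Fold changes ran from -0.14 for Snrpc to 0.19 for Hnrnpa1. Their 95% intervals lay between -0.43 and 0.59, and 49 of 50 lay inside ±0.5. Sf3b1 had 408 ± 17.5 TPM in mutant and 412 ± 27.4 TPM in control centrocytes, and Srsf5 had 366 ± 21.2 and 352 ± 17.5 TPM (SD, n = 5 each). None of the 30 alternatives called any splicing factor gene in this comparison.

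In centroblasts no splicing factor gene passed either, where 4.29% of all genes were called, 0.905% higher and 3.38% lower. The groups overlapped for all 50, while 0.755% of all genes lay wholly higher and 2.99% wholly lower in mutants. At an unadjusted p under 0.05 there were 16, of which 4 were higher and 12 lower, and 30.3% of all genes had such a p. The snRNP genes had a median fold change of 0.14, with 10 of 11 above 0, and the hnRNP genes one of -0.21, with 0 of 18 above 0, beside a median of -0.16 over all genes. Without mutant centroblast libraries 4 and 5 these medians were 0.04 and -0.01, and after scaling by median of ratios 0.33 and -0.03. Snrpd2 had the largest difference, with 420, 505, 542, 766 and 1220 TPM in mutant centroblasts, against 453, 410, 457, 425 and 464 TPM in control centroblasts, where libraries 2 to 5 of the mutants lay above all controls. That was 0.53 ± 0.17 (adjusted p = 0.0718). U2af1l4 had the smallest adjusted p, with 44.2, 49.8, 53.4, 50.3 and 57.8 TPM in mutant centroblasts, against 35.3, 41.8, 44.0, 37.8 and 45.9 TPM in control centroblasts. Library 1 of the mutants lay among the controls, and the difference of 0.31 ± 0.10 had an adjusted p of 0.0634, or 0.0282 after scaling by median of ratios. Sf3b1 had 251 ± 59.5 TPM in mutant and 317 ± 38.4 TPM in control centroblasts (SD, n = 5 each), a difference of -0.36 ± 0.12 (adjusted p = 0.0793). The count depended on single libraries: without mutant centroblast library 1 there were 4 higher and 10 lower, where 3.71% of all genes were called higher and 23.5% lower, and without library 2 there was 1 higher, against 1.02% of all genes. Erythroid markers moved with genotype, with sums of 323 to 808 TPM in mutant and 22.8 to 270 TPM in control centroblasts, 8 of 11 listed symbols found and Hbb-b2, Hba-a1 and Hba-a2 listed at 0 throughout, and their part was not tested.

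The difference of the genotype effects, centrocytes minus centroblasts, passed for 0 of 50 splicing factor genes, beside 0.0176% of all genes. It was lowest for Snrpd2, at -0.57 ± 0.25 (95% interval -1.08 to -0.06), and Snrpe, at -0.43 ± 0.20 (-0.83 to -0.03), the only 2 with an unadjusted p under 0.05 (adjusted p = 0.403 for both, limma). Hnrnpu, Snrpd2 and Snrpg, called between zones in mutants and missed in controls, were thus not shown to differ between the genotypes.

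Other genes of the splicing machinery, 158 tested of 162 listed, were called between zones at shares near those of all genes. In mutants 67 were higher and 21 lower in centrocytes, against 48.8% and 12.6% of all genes, and in controls 26 and 16, against 21.2% and 9.48%. The partners and kinases of SR proteins rose in 13 of 17 in mutants and 9 of 17 in controls, and none fell. The LSM list holds the U6 counterpart of the Sm ring and also LSM genes outside that ring. It had no gene higher, 5 of 9 lower in mutants and 4 of 9 lower in controls. In mutants 16 of 34 other regulators of exon choice were higher and 1 lower, 14 and 2 of 25 proteins of U1, U5 and U4/U6, 5 and 3 of 15 U2 associated genes, 9 and 4 of 27 genes of the NTC complex and the catalytic steps, 2 and 2 of 7 of the exon junction complex, 5 and 1 of 15 of snRNP assembly, and 4 and 3 of 10 of the minor spliceosome. In controls the same lists had 8 and 1, 2 and 1, 1 and 3, 1 and 3, 0 and 1, 3 and 1, and 2 and 2 called. Prpf4b, a kinase of splicing proteins, averaged 106 ± 10.4 TPM in mutant centrocytes and 53.5 ± 9.89 TPM in mutant centroblasts, a rise of 0.98 ± 0.13 (adjusted p = 3.06e-06). Tgs1, which finishes the cap of small nuclear RNAs, averaged 37.7 ± 3.62 and 16.2 ± 3.76 TPM in the same groups, a rise of 1.19 ± 0.15 (adjusted p = 1.74e-06). Prpf4b and Tgs1 rose in controls too. With mutant centroblast libraries 4 and 5 left out of the fit, the rises in controls were 0.47 (adjusted p = 0.00111) and 0.82 (adjusted p = 7.96e-06).

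Mbnl1, a regulator of exon choice, rose in centrocytes of both genotypes, to 393 ± 16.5 TPM against 237 ± 16.2 TPM in centroblasts in mutants (adjusted p = 7.7e-07) and to 380 ± 24.4 TPM against 249 ± 39.4 TPM in controls (adjusted p = 1.62e-05). Lsm4, of the LSM ring, fell by 0.66 ± 0.09 in mutants (adjusted p = 3.2e-06) and by 0.45 ± 0.09 in controls (adjusted p = 0.000548). In controls Phf5a, a small protein within SF3B, had 145 ± 11.5 TPM in centrocytes and 188 ± 7.77 TPM in centroblasts and fell by 0.38 ± 0.07 (adjusted p = 0.000275). Ppil1, a prolyl isomerase of the spliceosome, fell by 0.55 ± 0.08 (adjusted p = 4.87e-05), and Ddx39, a helicase of splicing and export, by 0.35 ± 0.06 (adjusted p = 0.000255). Phf5a, Ppil1 and Ddx39 fell in mutants too. Without centroblast libraries 4 and 5 their fold changes in mutants were -0.41 (adjusted p = 7.31e-05), -0.65 (adjusted p = 2.73e-07) and -0.36 (adjusted p = 7.06e-05). In the genotype comparisons the list had 1 call, Snrnp25 of the minor spliceosome, with 342 ± 76.4 TPM in mutant and 234 ± 12.3 TPM in control centroblasts, a rise of 0.52 ± 0.11 (adjusted p = 0.0154), or 0.34 without centroblast libraries 4 and 5. SDs here are over 5 libraries.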

How the data were processed

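The deposited files, 1 per library, gave TPM per gene symbol as the authors had computed it, for 23382 symbols that summed to the same total in each. Libraries were made from total RNA with the TruSeq stranded mRNA kit, per the labels' protocols. Alignment by the authors involved STAR and mm10, a mouse build, per the submitters' processing notes. Versions, annotation and counting tool: not given in the sources used here. Read depth is lost in TPM, so it is unknown and no counting interval is given. Near-identical copies, overlapping genes and the treatment of strand can each move a level.

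Libraries were grouped by the labels for sort and genotype. Tests were two-sided and used limma 3.58.1 (R 4.3.3; linear fit per gene, then eBayes with the trend and robust options) on log2(TPM + 1), a scale that understates changes of low genes. Genes that reached 1 TPM in 5 or more libraries entered 1 fit of 4 group means (11386 genes, 16 residual degrees of freedom), checked on simulated data. The 5 comparisons were genotype in each zone, the difference of these, and zone in each genotype, with p adjusted by Benjamini-Hochberg over all genes tested. Intervals are 95% and unadjusted. Positions, transcript lengths (median per gene) and pseudogenes came from GENCODE M21 (GRCm38, the assembly of mm10), promoters from RefSeq, and copies from blastn 2.17.0. Full values were given for the highest and lowest tested gene of each class, up to 4 largest rises and falls per comparison among called genes with at least 5 TPM in a group, Hnrnpll, Hnrnpl, Hnrnpk, Hnrnpu, Srsf1, Srsf2, Srsf3, Sf3b1, U2af1 and U2af1l4, and up to 4 other splicing genes per comparison by adjusted p. Called genes that complete a list, such as Snrpa1, Snrpb and Sf3b3, were given values beyond this rule. The members and lists were chosen with earlier results of these data known.

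Alternatives were a pseudocount of 0.1, no filter, a filter of 5 TPM, median-of-ratios scaling, eBayes without trend or robust, the compared groups alone, array weights, a replicate block, and each library, or mutant centroblast libraries 4 and 5, left out.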

Additional observations from a re-analysis of the deposited data

Results flagged for a closer look

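Of 116 groups of 5 libraries tested for a single library far from the rest (the named genes and the class sums in each group), 8 had one, and chance flags about 1 in 20 groups. Of these, 5 concerned control centroblasts. In control centroblast library 2, Srsf10 had 101 TPM (others 56.2 to 69.1), Hnrnph1 had 573 TPM (others 387 to 424) and the SR genes summed to 2670 TPM (others 2378 to 2453). In control centroblast library 4, Srsf2 had 597 TPM (others 552 to 561) and Sf3b4 had 92.1 TPM (others 61.9 to 68.2). Snrpe had 421 TPM in mutant centrocyte library 3 (others 492 to 518). Sf3b5 had 191 TPM in control centrocyte library 1 (others 162 to 169). U2af1 had 47.6 TPM in mutant centroblast library 5 (others 66.3 to 73.2).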

How the results depend on the processing

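Of 20 calls of named genes, 11 were kept in all 30 alternatives, and of 600 values 556 kept both direction and call, 42 kept direction only (29 of 400 that left out 1 library and 13 of 200 others) and 2 reversed. Both reversals were Srsf1 between zones in mutants, at -0.02 with median-of-ratios scaling and -0.11 with that scaling and without mutant centroblast libraries 4 and 5, a combination chosen after seeing the data. That scaling moved the median of all genes between zones from 0.34 to 0.02 in mutants and from 0.14 to 0.01 in controls, which by its construction takes away the common rise. Splicing factor genes called between zones in mutants (16 higher, 9 lower) were 3 and 27 with that scaling, 8 and 10 without libraries 4 and 5, 4 and 21 with both, 10 higher with the 2 groups alone and 10 higher with array weights. In controls (4 higher, 6 lower) they were 2 and 11 with that scaling, 10 and 12 without libraries 4 and 5, 3 and 19 with both, 10 and 10 with the 2 groups alone, and 16 and 14 with array weights. Between genotypes in centroblasts, 1 was higher with that scaling. Leaving out 1 library gave 11 to 21 higher and 8 to 10 lower between zones in mutants, 2 to 6 higher and 4 to 11 lower in controls (2 higher without control centroblast library 1 or control centrocyte library 2 or 3, 11 lower without mutant centroblast library 5), and 0 to 4 higher and 0 to 10 lower between genotypes in centroblasts. No alternative called a splicing factor gene between genotypes in centrocytes or for the difference of the genotype effects. Same-numbered libraries of the zones correlated in their deviations by -2.93e-05 to 0.269 in mutants and -0.0168 to 0.259 in controls, with 4 of 5 over 0.1 in each genotype, and 3 of 5 numbers in mutants and 4 of 5 in controls correlated best with their own, a hint from the data only. The numbers were not taken as pairs, since not every pair was over 0.1. With a replicate block there were 18 higher and 9 lower in mutants, 4 higher and 7 lower in controls and none between genotypes. In controls the block called Hnrnph1 (adjusted p = 0.0157) and Snrpg (adjusted p = 0.0241) and lost U2af1l4 (adjusted p = 0.0509). The causes of these changes were not tested. The depth of the libraries is unknown, which limits what can be said of low genes such as Hnrnpll.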
